A study of Mus musculus with 18 samples.

Results

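DNA replication and G1/S genes are the genes whose products license, unwind, copy and restore chromatin on DNA, supply its precursors and commit a cell to S phase. The set is a list of 52 gene symbols, and its members were found as the probe sets that the array annotation assigns to a single listed symbol, with the probe set of highest mean over the 18 arrays taken for each gene. A probe set of this kind was found for 51 of the 52, out of 18193 genes with a probe set, and all 51 passed the filter on dim genes that left 14018 genes for testing. Chaf1a is named only. Expression was measured in 3 groups of mice, with 1 Affymetrix mouse array per animal. The lymphoma group held 8 CD4Cre-ctnnbex3 mice with thymic lymphomas, the CD4Cre-ctnnbex3 group held 5 mice of that genotype before T-cell transformation, and the control group held 5 mice. In this model Cre recombinase is driven by Cd4 sequences and acts on an allele of Ctnnb1, the β-catenin gene, whose Cre-deleted form lacks the exon that carries the phosphorylation sites marking β-catenin for degradation. The control mice are LckCre mice in the series' design text and wild type in the sample labels, and which of these holds was not settled. No age, sex or strain is given in the sources used here. Total thymocytes or tumour masses were taken without sorting, and the design text calls the mice independent.

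In eukaryotic cells the origin recognition complex marks replication origins, and with Cdc6 and Cdt1 it loads the MCM helicase there in G1. Cyclin E with its kinase, and the Cdc7 kinase with Dbf4, then bring Cdc45 and the GINS complex onto the helicase, after which primase and the replicative polymerases copy DNA behind a sliding clamp. E2F factors drive many of these genes together at the G1/S boundary, so their RNA tends to be high where many cells cycle. The thymus holds both rapidly dividing immature T cells and a large resting population.

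The values are linear probe-set signals, given here as log2, and a log2 difference of 1 is a change of 2-fold. Signals of different probe sets are not on a common scale, so levels are compared between mice and not between genes. Array medians lay between 125 and 166 signal units (blanks left out), and the number of mice limits the precision. The mean log2 signal of 9 probe sets for hybridization spikes was 9.71 to 10.34 in lymphomas 3 to 8. It was 10.48 to 11.05 on all other arrays, lymphomas 1 and 2 included, and the part of this split in the results was not tested. Control 1 had 0 blank and 605 negative values, where the other arrays had 365 to 1175 blanks. Lymphomas 1 and 2 lay apart from the other tumours on the second principal component, at -49.3 and -44.1 against 6.30 to 18.9. CD4Cre-ctnnbex3 mice 1 and 2 lay apart from mice 3 to 5 in the same direction, at -11.8 and -26.5 against 12.3 to 22.3. The labels do not give sex, but Xist, the RNA that coats the inactive X chromosome, had a log2 signal of 13.1 in controls 1 and 2 and of 12.1 to 12.8 in lymphomas 1, 2, 5, 6, 7 and 8, and the Y-linked gene Eif2s3y had a signal of 8.88 to 9.70 in controls 3 to 5, all 5 CD4Cre-ctnnbex3 mice and lymphoma 3. Lymphoma 4 had signal for both genes, at 10.1 and 8.29. Counts are therefore given also without controls 1 and 2, for their Xist signal, and without lymphomas 1 and 2, for the component. Lymphomas 5, 6, 7 and 8 remain in the second of these, so it does not balance the groups in Xist signal. Values and calls are those of the brightest probe set of a gene unless a second one is named.

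Some promoters of the set hold E2F-type letters. The letters were not used to choose the members, but E2F factors are known to drive many of these genes. RefSeq promoter windows of 300 bases (250 before the annotated start and 50 after it, build GRCm38.p6) were matched for 43 of the 52 genes, 8 of which had several windows. An E2F-type run, spelled TTTCCCGC, TTTGGCGC, TTTCGCGC, TTTGGCGG or TTTCCCGG on either strand, was found in 19 of the 53 member windows (35.8%), against 1179 of all 32851 windows (3.59%). With TTTCCCGC and TTTGGCGC alone the shares were 22.6% of member windows and 1.56% of all windows. The spelling TTTCCCGG was in 0 member windows and in 419 of all windows. CCAAT, the core of the NF-Y site, was present in 50.9% of member windows and 37.4% of all, and the E-box CACGTG, which reads the same on both strands, in 15.1% and 7.15%. A match was found in 6 of the 7 licensing genes with a window (Cdc6, Cdt1, Mcm3, Mcm5, Mcm6 and Mcm7), in 4 of 6 primase and polymerase genes, in 0 of 5 deoxynucleotide genes and in 0 of 2 G1/S regulators. A match is a description of letters and not a site of binding.

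The windows of 6 genes are shown because their genes carry the results that follow. Cdt1 and Uhrf1 were lower in CD4Cre-ctnnbex3 mice than in controls, Mcm3 was higher in lymphomas than in both other groups, Mcm6 has several matches and passed by its second probe set only, Rpa1 moved against most of the set, and Pold2 changed in all 3 comparisons and has no match. For Uhrf1 and Pold2, which have 2 windows each, the window printed is the downstream one for Uhrf1, where the match lies, and the upstream one for Pold2. Capitals mark the E2F-type runs, and in Mcm6 the longer run holds 2 overlapping matches on opposite strands.
Cdt1 (chr8:122567765-122568064, plus strand): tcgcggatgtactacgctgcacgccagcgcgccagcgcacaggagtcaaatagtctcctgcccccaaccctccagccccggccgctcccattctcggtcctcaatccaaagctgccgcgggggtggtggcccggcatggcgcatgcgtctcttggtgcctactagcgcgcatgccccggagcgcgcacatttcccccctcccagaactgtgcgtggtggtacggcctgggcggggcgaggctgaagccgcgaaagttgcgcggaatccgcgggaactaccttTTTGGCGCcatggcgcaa
Mcm3 (chr1:20820263-20820562, minus strand): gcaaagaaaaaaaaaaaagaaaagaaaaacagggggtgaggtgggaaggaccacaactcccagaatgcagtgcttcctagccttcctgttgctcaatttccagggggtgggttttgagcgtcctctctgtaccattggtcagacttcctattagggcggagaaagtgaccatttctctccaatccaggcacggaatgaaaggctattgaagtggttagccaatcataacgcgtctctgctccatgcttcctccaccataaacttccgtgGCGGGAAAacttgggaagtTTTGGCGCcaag
Mcm6 (chr1:128359656-128359955, minus strand): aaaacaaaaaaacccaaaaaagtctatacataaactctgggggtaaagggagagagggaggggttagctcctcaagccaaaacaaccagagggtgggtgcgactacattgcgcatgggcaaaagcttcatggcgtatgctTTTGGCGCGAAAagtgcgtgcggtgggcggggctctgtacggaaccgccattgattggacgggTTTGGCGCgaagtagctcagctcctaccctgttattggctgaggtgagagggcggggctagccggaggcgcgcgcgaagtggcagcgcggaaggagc
Rpa1 (chr11:75348334-75348633, minus strand): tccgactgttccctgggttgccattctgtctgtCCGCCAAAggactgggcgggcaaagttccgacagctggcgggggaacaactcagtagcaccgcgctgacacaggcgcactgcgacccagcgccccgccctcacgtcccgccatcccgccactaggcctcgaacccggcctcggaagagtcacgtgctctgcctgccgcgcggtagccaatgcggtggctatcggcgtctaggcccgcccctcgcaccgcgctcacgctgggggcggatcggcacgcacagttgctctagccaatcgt
Uhrf1 (chr17:56304063-56304362, plus strand): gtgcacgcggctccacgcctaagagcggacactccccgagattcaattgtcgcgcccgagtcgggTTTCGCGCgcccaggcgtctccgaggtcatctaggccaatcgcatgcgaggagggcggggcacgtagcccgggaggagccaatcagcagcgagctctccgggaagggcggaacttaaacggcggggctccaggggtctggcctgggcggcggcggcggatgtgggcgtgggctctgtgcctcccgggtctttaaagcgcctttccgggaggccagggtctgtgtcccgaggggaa
Pold2 (chr11:5878207-5878506, minus strand): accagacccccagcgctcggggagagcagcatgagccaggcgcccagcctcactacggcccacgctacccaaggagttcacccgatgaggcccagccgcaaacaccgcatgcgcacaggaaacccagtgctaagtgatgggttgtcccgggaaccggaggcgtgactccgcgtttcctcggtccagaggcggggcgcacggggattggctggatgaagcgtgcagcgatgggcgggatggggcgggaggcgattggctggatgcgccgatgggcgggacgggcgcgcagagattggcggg

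In CD4Cre-ctnnbex3 mice the set leaned low against controls. Of the 51 members, 7 fell (adjusted p under 0.05), namely the licensing factor Cdt1, the helicase subunits Mcm4 and Mcm7, the polymerase δ subunits Pold1 and Pold2, the ribonucleotide reductase subunit Rrm2 and the chromatin factor Uhrf1. Over all genes tested 6.24% fell, and 10.7% passed in either direction. Rpa1, a subunit of the single-strand DNA binding protein RPA, and Ccne1, which encodes cyclin E1, rose, against 4.44% of all genes. The differences were below 0 for 45 of the 51 members, with a median of -0.33, against -0.016 over all 14018 genes. In whole tissue fewer cells of a type and less RNA per cell cannot be told apart.

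The lean was not equal over mice. Relative to the control mean, the median over the 51 members was -0.18, 0.05, -0.30, -0.59 and -0.52 in CD4Cre-ctnnbex3 mice 1 to 5, against 0.15, 0.09, -0.15, -0.17 and 0.07 in controls 1 to 5. Mice 4 and 5 were lowest, mouse 2 lay among the controls, and in mice 3, 4 and 5 between 43 and 46 of the 51 members were below the control mean. Without CD4Cre-ctnnbex3 mouse 2 the count of members that fell was 18, and 1014 of all 14018 genes fell, against 875 with it. With mice numbered 1 and 2 alone 1 member rose and 1 fell, and with mice numbered 3 and up alone 1 rose and 14 fell. The Xist signal was 6.07 to 6.96 in CD4Cre-ctnnbex3 mice against 13.1 in controls 1 and 2. Without these controls 1 member rose and 3 fell, where 467 and 465 of all genes did. The median difference over the members was then -0.21.

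**Figure D1:**
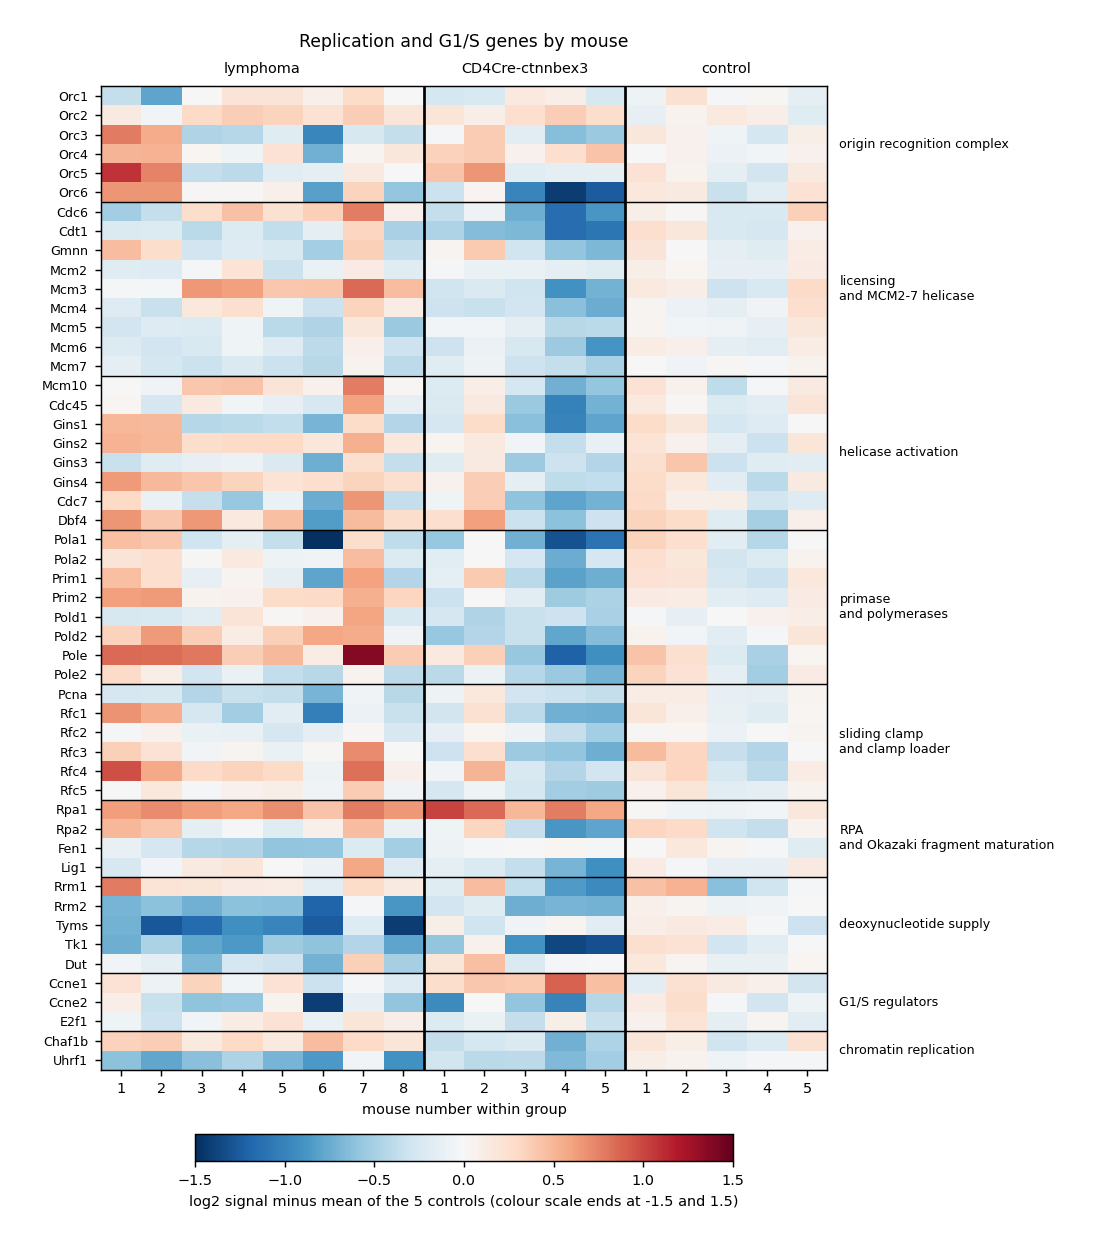
Log2 signal of each of the 51 members (rows, grouped by role) in each mouse (columns), minus the mean of the 5 controls; red is higher and blue is lower, and the colour scale ends at -1.5 and 1.5. Blue dominates CD4Cre-ctnnbex3 mice 3 to 5, whose medians were -0.30, -0.59 and -0.52, while Rpa1 is red in all lymphomas and all CD4Cre-ctnnbex3 mice.

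In lymphomas the set lay above the CD4Cre-ctnnbex3 mice. Of the 51 members, 16 rose, against 16.1% of all genes. They were Orc6, Cdc6, Cdt1, Mcm3, Mcm4, Mcm10, Gins2, Gins4, Prim2, Pold2, Pole, Rfc3, Rfc5, Lig1, Rrm1 and Chaf1b. Fen1, Tyms and Ccne1 fell, against 18.5% of all genes, of which 34.5% passed in either direction. Their second probe sets gave 0.44, -0.12 and 0.13 in that order, and only that of Fen1 passed, as higher. By the brightest probe sets the differences were above 0 for 39 members, with a median of 0.30, against -0.029 over all genes. This comparison shares the CD4Cre-ctnnbex3 mice with the one above, so the opposite signs of the medians do not count as separate observations. Without CD4Cre-ctnnbex3 mouse 4 or mouse 5 the number of members that rose was 9. Over all genes 1784 and 1740 rose then, against 2252 with all mice. With mice numbered 1 and 2 alone 5 members rose and 0 fell, where 1406 and 1179 of all genes did. Without lymphomas 1 and 2 the counts were 14 and 3, the median was 0.20 and 6029 genes passed in all, against 4839 with them. The Xist signal was 6.07 to 6.96 in CD4Cre-ctnnbex3 mice and 12.1 to 12.8 in lymphomas 1, 2, 5, 6, 7 and 8. Leaving out lymphomas 1 and 2 does not remove this difference, and its part in the results was not tested.

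Against controls the lymphomas showed no common lean. There, 7 members rose (Mcm3, Gins2, Gins4, Prim2, Pold2, Pole and Rpa1), against 17.4% of all genes, and 7 fell (Mcm7, Pcna, Fen1, Rrm2, Tyms, Tk1 and Uhrf1), against 22.7%, with 40.2% of all genes passing in either direction. The differences were above 0 for 25 members and below 0 for 26, with a median of -0.0017, against -0.029 over all genes. Relative to the control mean, the medians over the members in lymphomas 1 to 8 were 0.13, -0.01, -0.04, -0.03, -0.10, -0.24, 0.32 and -0.20. Lymphoma 7 lay above every control and lymphomas 6 and 8 below every control. Without control 3 or control 4 only 1 member rose, where 2009 and 2139 of all genes rose, against 2444 with all controls. Without controls 1 and 2 the number of members that fell was 4, where 2178 of all genes fell, against 3188 with them. Without lymphomas 1 and 2 the counts were 6 higher and 9 lower, and 7246 genes passed in all, against 5632 with them.

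**Figure D2:**
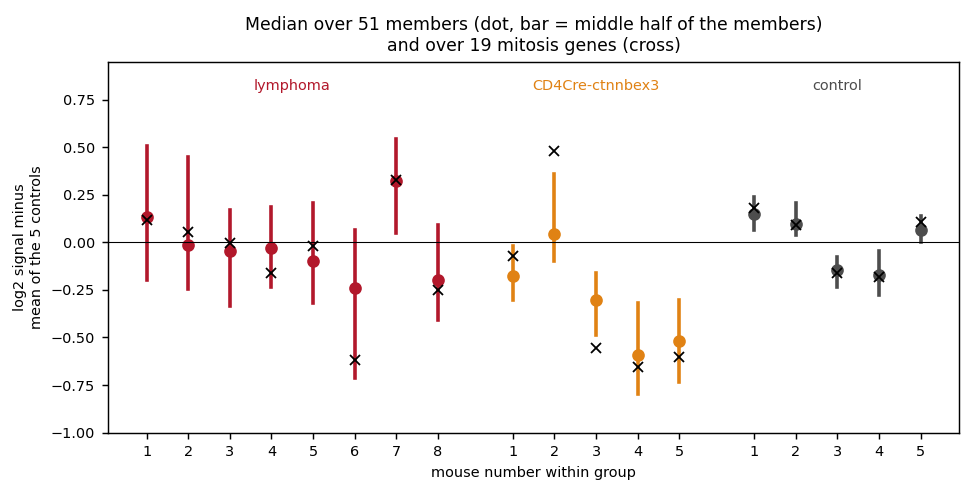
Log2 signal minus the mean of the 5 controls, for each mouse; the dot is the median over the 51 members, the bar spans the interquartile range of the members, and the cross is the median over 19 mitosis genes. The medians of CD4Cre-ctnnbex3 mice 3, 4 and 5 (-0.30, -0.59 and -0.52) lie below all 5 controls. That of mouse 1 (-0.179) lies just below the lowest control (-0.174), and the lymphoma medians run from -0.24 to 0.32.

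**Figure D3:**
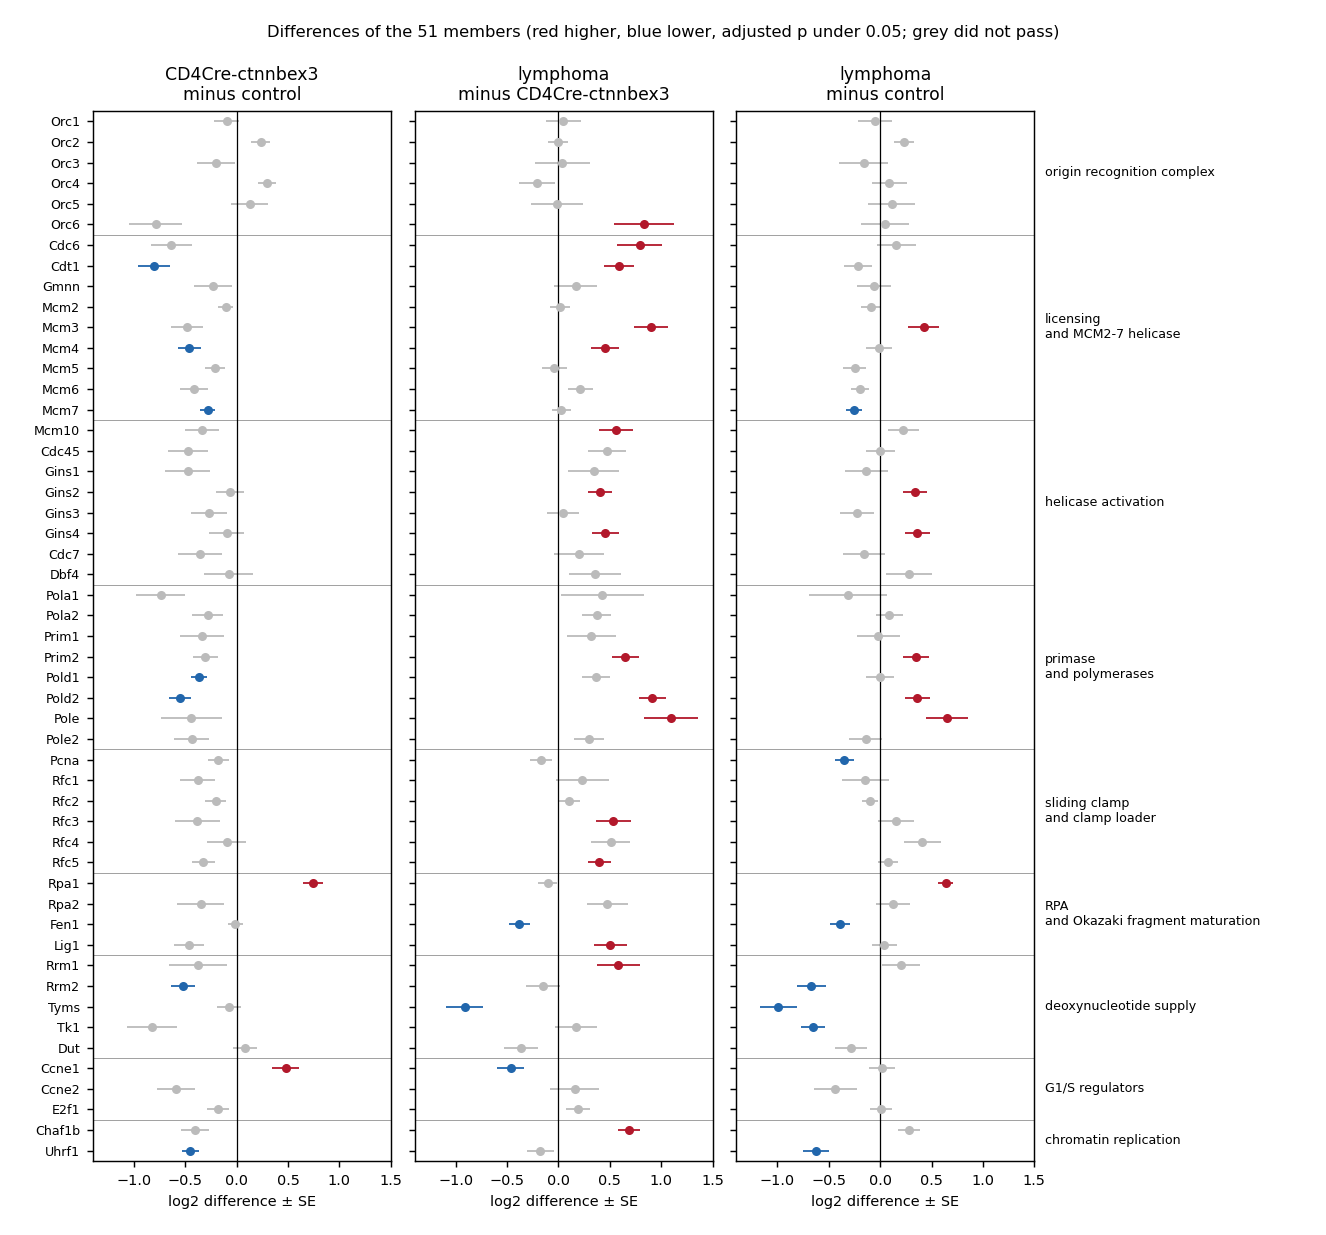
Log2 difference ± SE of each of the 51 members in the 3 comparisons, with the group named first minus the group named after it; red passed as higher, blue passed as lower, grey did not pass. In CD4Cre-ctnnbex3 mice against controls 2 points are red and 7 blue, in lymphomas against CD4Cre-ctnnbex3 mice 16 red and 3 blue, and in lymphomas against controls 7 red and 7 blue.

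Within the origin recognition complex Orc6, a small subunit, passed in 1 comparison, and the brightest probe sets of Orc1 to Orc5 passed in none. The second probe set of Orc1, the largest subunit, was higher in lymphomas than in CD4Cre-ctnnbex3 mice by 0.53 ± 0.13 (adjusted p = 0.0039) and than in controls by 0.39 ± 0.12 (adjusted p = 0.0193), where the brightest gave 0.05 and -0.05. Orc6 had a lowest, median and highest log2 signal of 8.33, 9.19 and 9.81 in lymphomas, signals of 8.82, 9.19, 8.15, 7.72 and 7.89 in the 5 CD4Cre-ctnnbex3 mice, and of 9.31, 9.28, 8.81, 8.97 and 9.36 in the 5 controls. CD4Cre-ctnnbex3 mice 3 to 5 lay below every control and every lymphoma, whereas mice 1 and 2 overlapped with the lymphomas. Orc6 was higher in lymphomas than in CD4Cre-ctnnbex3 mice by 0.83 ± 0.29 (SE; adjusted p = 0.0371), while its difference of CD4Cre-ctnnbex3 mice from controls was -0.79 ± 0.26 (adjusted p = 0.0843). The call in lymphomas was lost in 11 of the 27 other settings and subsets of mice tried, among them without any 1 of lymphomas 1, 2, 3, 4, 5 and 7 or of CD4Cre-ctnnbex3 mice 3, 4 and 5, with adjusted p up to 0.112. Orc4 had 8.27, 9.09 and 9.51 in lymphomas, 9.33, 9.37, 9.05, 9.24 and 9.41 in CD4Cre-ctnnbex3 mice, and 8.98, 9.05, 8.90, 8.94 and 9.05 in controls. All 5 CD4Cre-ctnnbex3 mice were above the highest control, some by very little, but the difference of 0.30 ± 0.09 did not pass (adjusted p = 0.0555). Orc2 differed by 0.23 ± 0.09 against controls in CD4Cre-ctnnbex3 mice (adjusted p = 0.161) and 0.23 ± 0.10 in lymphomas (adjusted p = 0.0745).

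The licensing genes were low in CD4Cre-ctnnbex3 mice. All 9 differences from controls were below 0, with a median of -0.41, and 3 of the 9 passed, where 6.24% of all genes fell. Cdt1, which loads the MCM helicase with Cdc6, had 9.99, 10.27 and 10.80 in lymphomas, 10.02, 9.82, 9.80, 9.33 and 9.40 in CD4Cre-ctnnbex3 mice, and 10.72, 10.65, 10.25, 10.22 and 10.54 in controls. All 5 CD4Cre-ctnnbex3 mice were below the lowest control, and 7 of the 8 lymphomas were above the highest CD4Cre-ctnnbex3 mouse. Cdt1 fell by 0.80 ± 0.15 in CD4Cre-ctnnbex3 mice against controls (adjusted p = 0.00477), was higher in lymphomas than in CD4Cre-ctnnbex3 mice by 0.59 ± 0.15 (adjusted p = 0.0071), and differed between lymphomas and controls by -0.21 ± 0.13 (adjusted p = 0.223). Its adjusted p against controls was 0.0519 without controls 1 and 2.

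Mcm4, a subunit of the MCM2-7 helicase, had 10.46, 10.82 and 11.13 in lymphomas, 10.48, 10.47, 10.51, 10.17 and 10.06 in CD4Cre-ctnnbex3 mice, and 10.84, 10.71, 10.65, 10.74 and 11.05 in controls. The CD4Cre-ctnnbex3 mice lay below all controls, and the lymphomas spanned both. Mcm4 fell by 0.46 ± 0.11 in CD4Cre-ctnnbex3 mice against controls (adjusted p = 0.0205) and was 0.45 ± 0.14 higher in lymphomas than in CD4Cre-ctnnbex3 mice (adjusted p = 0.0197). The call against controls was lost in 9 of 25 other settings, among them without control 1 or 5 or CD4Cre-ctnnbex3 mouse 4, with adjusted p up to 0.119. Mcm3, another helicase subunit, had 10.32, 10.78 and 11.19 in lymphomas, 10.05, 10.12, 10.04, 9.44 and 9.63 in CD4Cre-ctnnbex3 mice, and 10.49, 10.43, 10.03, 10.12 and 10.63 in controls. All 8 lymphomas were above all CD4Cre-ctnnbex3 mice, and 6 of the 8 were above every control. Mcm3 was 1.87-fold higher in lymphomas than in CD4Cre-ctnnbex3 mice (log2 0.91 ± 0.17, adjusted p = 0.000855) and 1.34-fold higher than in controls (0.42 ± 0.15, adjusted p = 0.0411). Lymphomas 1 and 2 were the tumours at the low end of Mcm3, and against controls 1 and 2 alone they differed by -0.14. The call of Mcm3 against controls was lost in 15 of 29 other settings, among them without any 1 of lymphomas 3 to 8 or of controls 1 to 4, with adjusted p up to 0.24.

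For the other MCM subunits the result depended on the probe set. Mcm7 fell by 0.28 ± 0.08 in CD4Cre-ctnnbex3 mice (adjusted p = 0.0328) and by 0.25 ± 0.08 in lymphomas (adjusted p = 0.0164), both against controls, whose 5 signals lay between 12.32 and 12.43. The call in CD4Cre-ctnnbex3 mice was lost in 15 of 25 other settings, among them without any 1 control and without CD4Cre-ctnnbex3 mouse 3, 4 or 5, with adjusted p up to 0.472. The second Mcm7 probe set gave -0.52 ± 0.12 in CD4Cre-ctnnbex3 mice (adjusted p = 0.0175) and -0.08 ± 0.09 in lymphomas (adjusted p = 0.492) against controls, and was 0.43 ± 0.12 higher in lymphomas than in CD4Cre-ctnnbex3 mice (adjusted p = 0.00999). Mcm2, Mcm5 and Mcm6 passed in no comparison by their brightest probe sets, with differences of lymphomas from controls of -0.09 ± 0.10, -0.25 ± 0.11 and -0.20 ± 0.09. By its second probe set Mcm6 fell by 0.66 ± 0.13 in CD4Cre-ctnnbex3 mice against controls (adjusted p = 0.00631) and was 0.84 ± 0.20 higher in lymphomas than in CD4Cre-ctnnbex3 mice (adjusted p = 0.00358), where the brightest gave -0.41 and 0.21. Cdc6, the ATPase that joins the origin recognition complex before loading, was 0.79 ± 0.22 higher in lymphomas than in CD4Cre-ctnnbex3 mice (adjusted p = 0.0124), but lymphomas 1 and 2 against CD4Cre-ctnnbex3 mice 1 and 2 alone differed by -0.22. Gmnn, which encodes geminin, the inhibitor of Cdt1, passed in no comparison, and its differences were -0.23 ± 0.19 in CD4Cre-ctnnbex3 mice against controls and 0.17 ± 0.21 in lymphomas against CD4Cre-ctnnbex3 mice.

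Of the 8 genes for the activation of the helicase, 3 rose in lymphomas against CD4Cre-ctnnbex3 mice, where 16.1% of all genes rose, namely Gins2 and Gins4, subunits of the GINS complex, and Mcm10, which acts as the helicase is activated. None of the 8 passed in CD4Cre-ctnnbex3 mice against controls, where all 8 differences were below 0. Gins2 had 8.51, 8.65 and 8.89 in lymphomas, 8.39, 8.50, 8.32, 8.00 and 8.24 in CD4Cre-ctnnbex3 mice, and 8.56, 8.42, 8.23, 8.04 and 8.54 in controls. All lymphomas were above all CD4Cre-ctnnbex3 mice and 6 of the 8 above all controls, with differences of 0.41 ± 0.11 (adjusted p = 0.0131) and 0.34 ± 0.12 (adjusted p = 0.0293). Gins4 was higher by 0.46 ± 0.13 (adjusted p = 0.0162) and 0.36 ± 0.12 (adjusted p = 0.0293) in the same comparisons, whereas Gins1 and Gins3 passed in none. Against controls the call of Gins2 was lost in 5 of 29 other settings and that of Gins4 in 4 of 28. Both were lost without control 3 or 4 and without lymphomas 1 and 2, with adjusted p up to 0.0927 and 0.0938. The call of Mcm10 against CD4Cre-ctnnbex3 mice was lost in 4 of 27, with adjusted p up to 0.94.

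Cdc45, which joins MCM2-7 and GINS in the active helicase, had 8.31, 8.48 and 9.17 in lymphomas, 8.34, 8.70, 8.00, 7.56 and 7.86 in CD4Cre-ctnnbex3 mice, and 8.72, 8.58, 8.36, 8.40 and 8.76 in controls. The groups overlapped, with CD4Cre-ctnnbex3 mice 4 and 5 lowest, and lymphomas differed from CD4Cre-ctnnbex3 mice by 0.47 ± 0.19 (adjusted p = 0.0632). Dbf4, the activating subunit of the Cdc7 kinase, had 8.56, 9.83 and 10.07 in lymphomas, 9.66, 10.02, 9.08, 8.78 and 9.09 in CD4Cre-ctnnbex3 mice, and 9.74, 9.68, 9.22, 8.90 and 9.47 in controls. The low lymphoma was number 6, and Dbf4 passed in no comparison, with 0.36 ± 0.25 for lymphomas against CD4Cre-ctnnbex3 mice.

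Among primase and polymerase genes, Pold2 changed in each comparison. All 8 genes of this role were lower in CD4Cre-ctnnbex3 mice than in controls (median -0.40), and 2 of 8 passed, where 6.24% of all genes fell. All 8 were higher in lymphomas than in CD4Cre-ctnnbex3 mice (median 0.40), and 3 of 8 passed, where 16.1% of all genes rose. Pold2, the accessory subunit of polymerase δ, had 8.99, 9.40 and 9.68 in lymphomas, 8.47, 8.61, 8.71, 8.27 and 8.40 in CD4Cre-ctnnbex3 mice, and 9.10, 9.01, 8.87, 9.02 and 9.22 in controls. The CD4Cre-ctnnbex3 mice were below all controls and all lymphomas, and 6 of the 8 lymphomas were above all controls. Pold2 fell by 0.55 ± 0.11 in CD4Cre-ctnnbex3 mice against controls (adjusted p = 0.00566), was 1.88-fold higher in lymphomas than in CD4Cre-ctnnbex3 mice (log2 0.91 ± 0.13, adjusted p = 0.000132), and 1.28-fold higher than in controls (0.36 ± 0.12, adjusted p = 0.0294). Pold1, its catalytic partner, fell by 0.37 ± 0.08 in CD4Cre-ctnnbex3 mice against controls (adjusted p = 0.0105). The call of Pold2 in lymphomas against controls was lost in 6 of 28 other settings, with adjusted p up to 0.117. Among them were the settings without controls 1 and 2 and without control 2, 3 or 4.

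Pole, the catalytic subunit of the leading-strand polymerase ε, had the largest increase of the set in lymphomas over CD4Cre-ctnnbex3 mice, 2.13-fold (log2 1.09 ± 0.26, adjusted p = 0.00559). Its means were 9.13 ± 0.40 in lymphomas, 8.04 ± 0.68 in CD4Cre-ctnnbex3 mice and 8.48 ± 0.36 in controls (SD, n = 8, 5 and 5 mice), and it was also higher in lymphomas than in controls by 0.65 ± 0.20 (adjusted p = 0.0184). The CD4Cre-ctnnbex3 mice were split, with 8.63 and 8.84 in mice 1 and 2 and 7.91, 7.27 and 7.56 in mice 3 to 5. Prim2, the large subunit of primase, was higher in lymphomas than in CD4Cre-ctnnbex3 mice by 0.65 ± 0.13 (adjusted p = 0.00196) and than in controls by 0.35 ± 0.12 (adjusted p = 0.0354), whereas Prim1, the catalytic subunit, passed in no comparison. The call of Prim2 against controls was lost in 9 of 29 other settings, with adjusted p up to 0.0947. Pola1, the catalytic subunit of polymerase α, had 6.51, 8.75 and 9.41 in lymphomas, 8.39, 8.96, 8.24, 7.65 and 7.86 in CD4Cre-ctnnbex3 mice, and 9.30, 9.21, 8.79, 8.53 and 8.97 in controls. Lymphoma 6 was the low tumour, below the filter on dim genes, and Pola1 passed in no comparison, with -0.74 ± 0.23 in CD4Cre-ctnnbex3 mice against controls (adjusted p = 0.0716).

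Of the 6 clamp and clamp-loader genes, 2 rose in lymphomas against CD4Cre-ctnnbex3 mice, where 16.1% of all genes rose. Rfc5, a clamp-loader subunit, had 9.84, 9.93 and 10.27 in lymphomas, 9.64, 9.82, 9.63, 9.37 and 9.35 in CD4Cre-ctnnbex3 mice, and 9.96, 10.07, 9.73, 9.75 and 9.95 in controls. All 8 lymphomas were above all CD4Cre-ctnnbex3 mice and overlapped with the controls, and the difference was 0.40 ± 0.11 (adjusted p = 0.0121). Rfc3 rose by 0.54 ± 0.17 (adjusted p = 0.027), and Rfc4 differed by 0.51 ± 0.19 (adjusted p = 0.0531). The call of Rfc3 was lost in 5 of 28 other settings, with adjusted p up to 0.367. Rfc2 had 9.85, 10.00 and 10.16 in lymphomas, 9.99, 10.13, 10.03, 9.76 and 9.59 in CD4Cre-ctnnbex3 mice, and 10.12, 10.13, 10.02, 10.11 and 10.14 in controls. Its controls were close together apart from mouse 3, and by this probe set it passed in no comparison. The second Rfc2 probe set was higher in lymphomas, by 0.74 ± 0.14 than in CD4Cre-ctnnbex3 mice (adjusted p = 0.000926) and by 0.43 ± 0.15 than in controls (adjusted p = 0.0348). That of Rfc4 also passed, at 0.66 ± 0.24 (adjusted p = 0.0404) and 0.53 ± 0.20 (adjusted p = 0.0492). Pcna, the sliding clamp itself, went the other way in lymphomas, where it was lower than in controls by 0.35 ± 0.09 (adjusted p = 0.00743), with means of 12.53 ± 0.19 in lymphomas, 12.70 ± 0.22 in CD4Cre-ctnnbex3 mice and 12.87 ± 0.12 in controls (SD, n = 8, 5 and 5).

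Rpa1 stood against the lean of the set. Rpa1, the large subunit of RPA, had 12.01, 12.22 and 12.37 in lymphomas, 12.59, 12.44, 12.08, 12.35 and 12.16 in CD4Cre-ctnnbex3 mice, and 11.61, 11.52, 11.50, 11.54 and 11.75 in controls. Every lymphoma and every CD4Cre-ctnnbex3 mouse was above every control, and the lymphomas overlapped with the CD4Cre-ctnnbex3 mice. Against controls Rpa1 was 1.67-fold higher in CD4Cre-ctnnbex3 mice (log2 0.74 ± 0.10, adjusted p = 0.000391) and 1.55-fold higher in lymphomas (0.64 ± 0.07, adjusted p = 7.85e-06). These 2 comparisons share the controls. Its second probe set gave 0.76 ± 0.12 in CD4Cre-ctnnbex3 mice (adjusted p = 0.00165) and 1.08 ± 0.10 in lymphomas (adjusted p = 6.71e-07), both against controls, and was 0.32 ± 0.11 higher in lymphomas than in CD4Cre-ctnnbex3 mice (adjusted p = 0.0378), where the brightest gave -0.11. Rpa2, the partner subunit, did not pass in any comparison, with -0.35 ± 0.23 in CD4Cre-ctnnbex3 mice against controls and 0.48 ± 0.20 in lymphomas against CD4Cre-ctnnbex3 mice.

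Of the genes that finish Okazaki fragments, Lig1, the DNA ligase that seals them, was higher in lymphomas than in CD4Cre-ctnnbex3 mice by 0.51 ± 0.16 (adjusted p = 0.0225). This call was lost in 4 of 27 other settings, with adjusted p up to 0.864. Fen1, the nuclease that trims the flaps of Okazaki fragments, had 10.40, 10.55 and 10.88 in lymphomas, 10.92, 10.98, 11.00, 11.02 and 10.98 in CD4Cre-ctnnbex3 mice, and 10.99, 11.15, 11.04, 10.97 and 10.81 in controls. All lymphomas were below all CD4Cre-ctnnbex3 mice, and by this probe set Fen1 fell by 0.38 ± 0.10 (adjusted p = 0.0082) against them and by 0.39 ± 0.10 (adjusted p = 0.00589) against controls. The second Fen1 probe set gave the opposite, 0.44 ± 0.14 against CD4Cre-ctnnbex3 mice (adjusted p = 0.0262) and 0.31 against controls (adjusted p = 0.0402), so the direction of Fen1 in lymphomas depends on the probe set.

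Deoxynucleotide genes were low in lymphomas against controls, where 3 of the 5 fell, against 22.7% of all genes, with a median of -0.65 over the 5. Tyms, thymidylate synthase, had 7.01, 7.36 and 8.24 in lymphomas, 8.53, 8.14, 8.38, 8.48 and 8.28 in CD4Cre-ctnnbex3 mice, and 8.54, 8.57, 8.55, 8.40 and 8.12 in controls. In 7 of the 8 lymphomas it was below every CD4Cre-ctnnbex3 mouse and every control. Tyms was 1.99-fold lower in lymphomas than in controls (log2 -0.99 ± 0.18, adjusted p = 0.000553) and 1.88-fold lower than in CD4Cre-ctnnbex3 mice (-0.91 ± 0.18, adjusted p = 0.00144). By its second probe set Tyms also fell in lymphomas against controls, by 0.72 ± 0.26 (adjusted p = 0.0366), but it gave -0.12 ± 0.28 in lymphomas against CD4Cre-ctnnbex3 mice (adjusted p = 0.752) and -0.60 ± 0.16 in CD4Cre-ctnnbex3 mice against controls (adjusted p = 0.0255), where the brightest gave -0.08 (adjusted p = 0.814). Tk1, thymidine kinase of the salvage pathway, was lower in all 8 lymphomas than in all 5 controls, by 0.65 ± 0.12 (adjusted p = 0.00048), with means of 9.13 ± 0.16 in lymphomas, 8.96 ± 0.59 in CD4Cre-ctnnbex3 mice and 9.78 ± 0.23 in controls (SD, n = 8, 5 and 5). In CD4Cre-ctnnbex3 mice against controls Tk1 had the lowest difference of the set, -0.82 ± 0.24, which did not pass (adjusted p = 0.0538).

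The subunits of ribonucleotide reductase differed from each other. Rrm2, the small subunit, had 10.98, 11.52 and 12.16 in lymphomas, 11.90, 12.00, 11.45, 11.49 and 11.47 in CD4Cre-ctnnbex3 mice, and 12.26, 12.22, 12.11, 12.13 and 12.20 in controls. All CD4Cre-ctnnbex3 mice and 7 of the 8 lymphomas lay below all controls, and against controls Rrm2 fell by 0.52 ± 0.11 in CD4Cre-ctnnbex3 mice (adjusted p = 0.0102) and by 0.67 ± 0.14 in lymphomas (adjusted p = 0.00151). Its second probe set passed in neither, with adjusted p = 0.124 and 0.169. Rrm1, the large subunit, had 10.64, 10.96 and 11.58 in lymphomas, 10.62, 11.27, 10.43, 9.95 and 9.85 in CD4Cre-ctnnbex3 mice, and 11.24, 11.32, 10.18, 10.50 and 10.78 in controls. The groups overlapped, and Rrm1 was 0.58 ± 0.21 higher in lymphomas than in CD4Cre-ctnnbex3 mice (adjusted p = 0.0427), a call lost in 16 of the 28 other settings and subsets of mice tried. Dut, the enzyme that removes dUTP, passed in no comparison.

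Of the 3 G1/S regulators, Ccne1 passed and Ccne2 and E2f1 did not. Ccne1 had 9.67, 9.96 and 10.33 in lymphomas, 10.25, 10.40, 10.39, 10.87 and 10.44 in CD4Cre-ctnnbex3 mice, and 9.82, 10.22, 10.13, 10.07 and 9.72 in controls. All CD4Cre-ctnnbex3 mice were above all controls, and 7 of the 8 lymphomas were below the lowest CD4Cre-ctnnbex3 mouse. Ccne1 was 0.48 ± 0.13 higher in CD4Cre-ctnnbex3 mice than in controls (adjusted p = 0.0379) and fell by 0.47 ± 0.13 in lymphomas against CD4Cre-ctnnbex3 mice (adjusted p = 0.0143). Its second probe set gave 1.58 ± 0.18 in the first of these (adjusted p = 0.000122) but 0.13 ± 0.20 in the second (adjusted p = 0.64). In lymphomas against controls the second probe set gave 1.71 ± 0.19 (adjusted p = 6.67e-06) and the brightest 0.01 (adjusted p = 0.943), so the level of Ccne1 in lymphomas relative to controls depends on the probe set. The call against controls was lost without control 1, 3, 4 or 5 and without CD4Cre-ctnnbex3 mouse 3, 4 or 5, with adjusted p up to 0.329 over all settings.

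Ccne2, the gene of the other cyclin E, had 7.40, 8.36 and 8.92 in lymphomas, 7.86, 8.82, 8.22, 7.82 and 8.39 in CD4Cre-ctnnbex3 mice, and 8.93, 9.08, 8.78, 8.53 and 8.74 in controls. In this gene 4 of the 5 CD4Cre-ctnnbex3 mice and 5 of the 8 lymphomas were below all controls, with differences of -0.59 ± 0.19 (adjusted p = 0.0689) and -0.44 ± 0.21 (adjusted p = 0.116) that did not pass. E2f1, an activating E2F factor, did not pass in any comparison, at -0.18 ± 0.11 in CD4Cre-ctnnbex3 mice and 0.01 ± 0.11 in lymphomas, both against controls.

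Of the 2 chromatin genes measured, Chaf1b rose in lymphomas against CD4Cre-ctnnbex3 mice and Uhrf1 fell against controls. Chaf1b, a subunit of the CAF-1 complex that deposits histones behind the fork, had 8.63, 8.77 and 8.94 in lymphomas, 8.12, 8.21, 8.26, 7.76 and 8.02 in CD4Cre-ctnnbex3 mice, and 8.66, 8.57, 8.18, 8.27 and 8.71 in controls. All lymphomas were above all CD4Cre-ctnnbex3 mice and overlapped with controls, and Chaf1b was 1.61-fold higher than in CD4Cre-ctnnbex3 mice (log2 0.69 ± 0.11, adjusted p = 0.000269), with 0.04 ± 0.14 by its second probe set (adjusted p = 0.863). Uhrf1, which guides maintenance DNA methylation to newly copied DNA, had 10.19, 10.44 and 11.07 in lymphomas, 10.83, 10.70, 10.71, 10.45 and 10.59 in CD4Cre-ctnnbex3 mice, and 11.19, 11.15, 11.04, 11.07 and 11.07 in controls. All CD4Cre-ctnnbex3 mice and 7 of the 8 lymphomas were below all controls. Against controls Uhrf1 fell by 0.45 ± 0.08 in CD4Cre-ctnnbex3 mice (adjusted p = 0.00313) and by 0.63 ± 0.13 in lymphomas (adjusted p = 0.00117), while its second probe set passed in neither, with adjusted p = 0.0963 and 0.224.

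**Figure D4:**
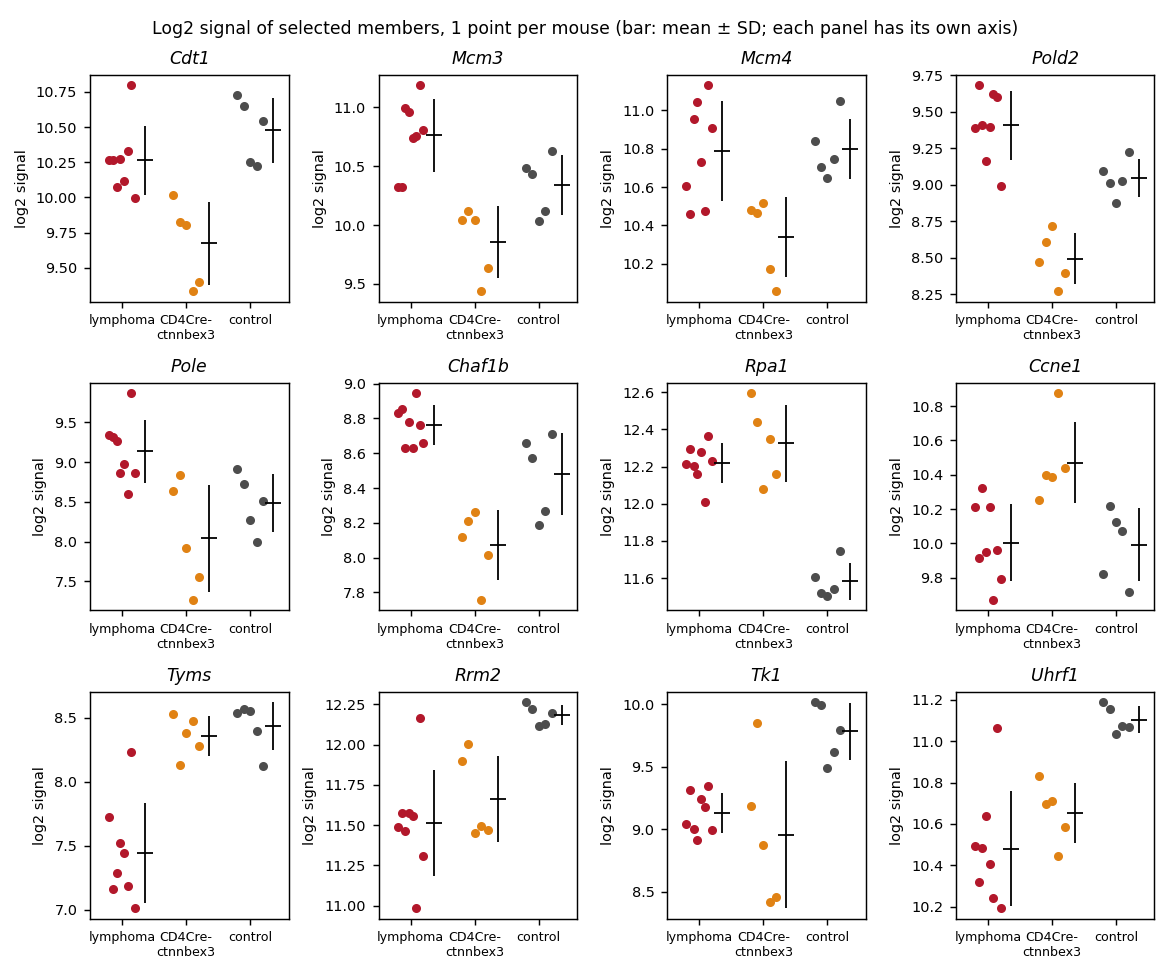
Log2 signal of 12 members in each mouse (points), with the mean ± SD of each group as a bar; each panel has its own axis, and lymphomas (n = 8), CD4Cre-ctnnbex3 mice (n = 5) and controls (n = 5) run from left to right. Cdt1, Mcm4 and Pold2 are lowest in CD4Cre-ctnnbex3 mice, Rpa1 is above every control in both other groups, and Tyms is lowest in lymphomas. The mean of Tk1 is lower in lymphomas and in CD4Cre-ctnnbex3 mice than in controls.

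Where a member had a second probe set (34 members), the sign of the difference was the same for 31 in CD4Cre-ctnnbex3 mice against controls, for 23 in lymphomas against CD4Cre-ctnnbex3 mice and for 23 in lymphomas against controls. Among members that passed, the signs were the same for 8 of 8, 9 of 11 and 8 of 9 in that order of comparisons, and the second probe set also passed with the same sign for 6, 7 and 3 of them. The exceptions in sign were Fen1 and Ccne1 in lymphomas against CD4Cre-ctnnbex3 mice and Fen1 in lymphomas against controls. By the second probe set alone 2 members passed in the first comparison (Mcm6 and Tyms), 6 in the second (Orc1, Mcm6, Mcm7, Rfc2, Rfc4 and Rpa1) and 4 in the third (Orc1, Rfc2, Rfc4 and Ccne1).

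Members whose groups did not overlap were counted as well. In CD4Cre-ctnnbex3 mice 3 members were wholly above and 8 wholly below the controls, against 4.37% and 6.28% of all genes. Lymphomas were wholly above the CD4Cre-ctnnbex3 mice in 7 members (Mcm3, Gins2, Prim2, Pold1, Pold2, Rfc5 and Chaf1b) and wholly below in 1 (Fen1), against 6.76% and 8.88% of all genes. Against controls the counts were 1 above (Rpa1) and 1 below (Tk1), against 8.31% and 12% of all genes.

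The members also varied together between mice of 1 group, as a description. After subtraction of group means, the median Pearson r over the 1275 pairs of members was 0.526 over the 18 mice, and 86.7% of pairs were above 0, against a median of 0.0245 for pairs of all genes. Within groups the median was 0.480 over 8 lymphomas, 0.724 over 5 CD4Cre-ctnnbex3 mice and 0.708 over 5 controls. The points share the array and its scaling, which can add to r. By role the median was highest among clamp and clamp-loader genes (0.76), helicase activation genes (0.69) and licensing genes (0.67), and was -0.40 within the origin recognition complex, where Orc1 and Orc2 ran against Orc3, Orc5 and Orc6. Prim1 and Pcna had the highest mean r with the other members, at 0.642 and 0.632, whereas Orc2, Ccne1 and Orc1 had means of -0.233, -0.0885 and -0.0879. The SD between mice had a median over members of 0.275 in lymphomas, 0.274 in CD4Cre-ctnnbex3 mice and 0.189 in controls, against 0.295, 0.241 and 0.192 over all genes.

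**Figure D5:**
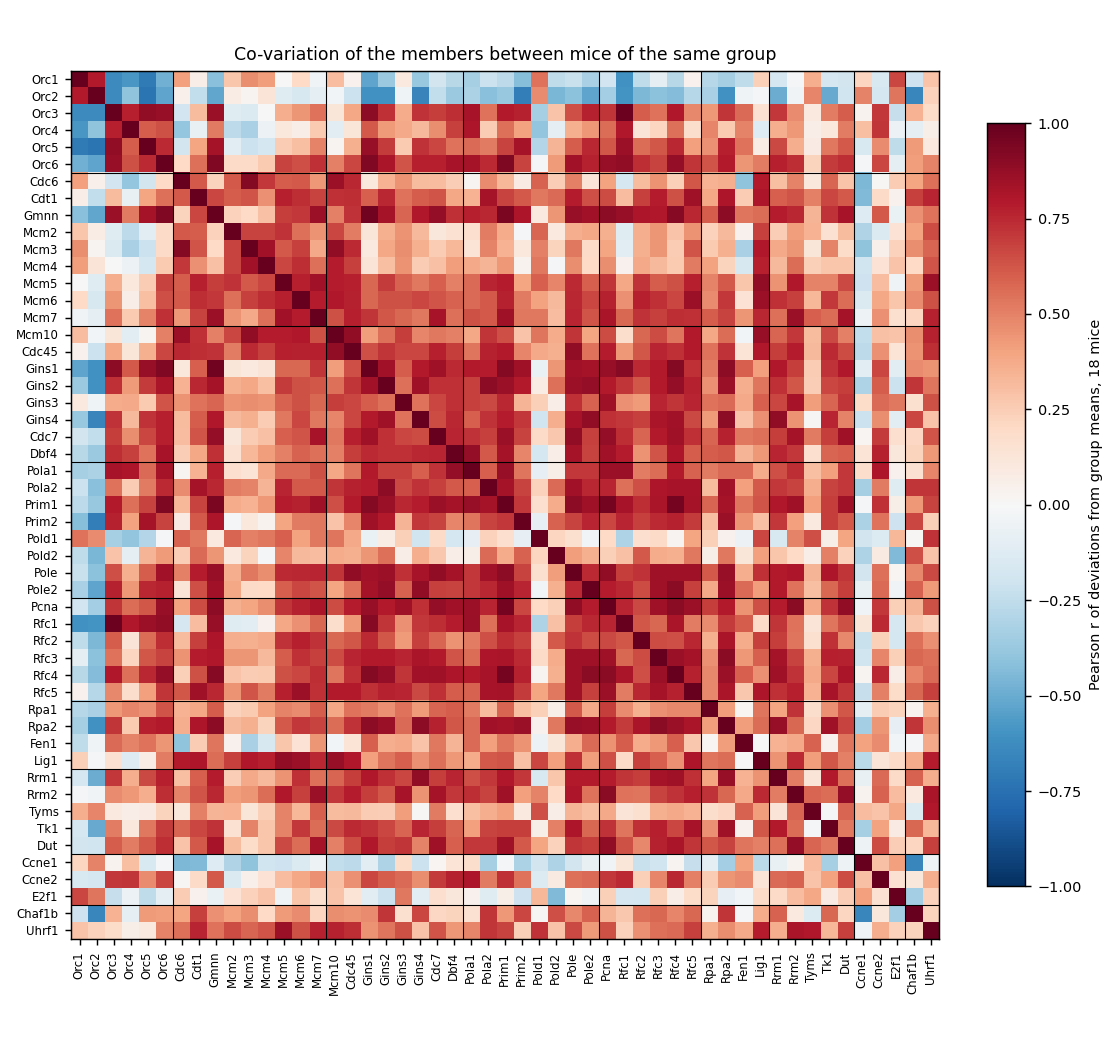
Pearson r between each pair of the 51 members over 18 mice, after subtraction of each group's mean; both axes list the members in the order of their roles, separated by lines, and the colour runs from -1 to 1. The median over pairs is 0.526, and the rows of Orc1, Orc2 and Ccne1 are mostly blue or pale.

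The change of members with an E2F-type match was set beside that of members without one. In CD4Cre-ctnnbex3 mice against controls the median difference was -0.38 for the 18 measured members with an E2F-type match and -0.33 for the 24 with a window and no match. In lymphomas against CD4Cre-ctnnbex3 mice the medians were 0.26 and 0.22, and in lymphomas against controls -0.10 and 0.01, in the same order. Of the windows shown above with a match, those of Cdt1 and Uhrf1 belong to genes that fell in CD4Cre-ctnnbex3 mice, and that of Rpa1 to a gene that rose. Pold2, whose window has no match, also fell there.

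Replication genes outside the set, from 4 lists of other fork, S-phase entry, chromatin and deoxynucleotide genes, also leaned low in CD4Cre-ctnnbex3 mice. Of 53 tested, 1 rose and 10 fell (18.9%) in CD4Cre-ctnnbex3 mice against controls (median -0.24), where 6.24% of all genes fell. In lymphomas against CD4Cre-ctnnbex3 mice 13 (24.5%) rose and 2 fell (median 0.20), where 16.1% of all genes rose. In lymphomas against controls 9 (17.0%) rose and 10 (18.9%) fell (median -0.07), near the 17.4% and 22.7% of all genes. Among fork and origin factors, Rpa3, the small RPA subunit, fell by 0.73 ± 0.11 in CD4Cre-ctnnbex3 mice against controls (adjusted p = 0.000889), in contrast to Rpa1. E2f7, a repressive E2F factor, and Tfdp1, the partner of E2F factors, fell there by 0.85 ± 0.19 and 0.49 ± 0.12 (adjusted p = 0.0121 and 0.0171). In lymphomas E2f3, an activating E2F factor, and Tfdp1 were 0.84 ± 0.12 and 0.65 ± 0.13 higher than in CD4Cre-ctnnbex3 mice (adjusted p = 0.000177 and 0.0015). Deoxynucleotide genes outside the set split too, with Dctpp1, a nucleotide pyrophosphatase, 1.30 ± 0.21 higher and Dck, deoxycytidine kinase, lower by 1.35 ± 0.26 in lymphomas than in CD4Cre-ctnnbex3 mice (adjusted p = 0.000349 and 0.00114). Dtymk, thymidylate kinase, fell by 0.89 ± 0.13 in CD4Cre-ctnnbex3 mice against controls (adjusted p = 0.000889).

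Mitosis genes, whose RNA is high in dividing cells, were low in several of the same mice. Their median relative to the control mean was 0.12, 0.05, -0.01, -0.16, -0.02, -0.62, 0.33 and -0.25 in lymphomas 1 to 8, -0.07, 0.48, -0.56, -0.65 and -0.60 in CD4Cre-ctnnbex3 mice 1 to 5, and 0.18, 0.09, -0.16, -0.18 and 0.11 in controls 1 to 5. CD4Cre-ctnnbex3 mice 3 to 5 and lymphoma 6 were low, as they were for the replication members. Few of the 19 passed. In CD4Cre-ctnnbex3 mice against controls 0 rose and 1 (5.3%) fell, near the 6.24% of all genes that fell. The differences there were nonetheless below 0 for 18 of the 19, with a median of -0.33, against -0.016 over all genes. The gene that fell was Kif23, a kinesin of cytokinesis, by 1.02 ± 0.27 (adjusted p = 0.0305). In lymphomas 2 (10.5%) rose and 0 fell against CD4Cre-ctnnbex3 mice (median 0.20, 14 differences above 0), where 16.1% of all genes rose. Aurkb, a mitotic kinase, led these at 0.83 ± 0.15 (adjusted p = 0.00075). In lymphomas against controls 0 rose and 2 (10.5%) fell (median -0.05), where 22.7% of all genes fell. The part of cell division in the changes of the set was not tested.

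Of 16 tested regulators upstream of S phase, 0 rose and 4 (25%) fell in CD4Cre-ctnnbex3 mice against controls (median -0.17), where 4.44% and 6.24% of all genes did. In lymphomas against CD4Cre-ctnnbex3 mice 5 rose and 5 fell (31.2% each; median 0.02), where 16.1% and 18.5% of all genes did, and against controls 4 (25%) rose and 7 (43.8%) fell (median -0.28), where 17.4% and 22.7% did. In CD4Cre-ctnnbex3 mice Cdk6, a G1 kinase, fell by 0.99 ± 0.10 and Ccnd2, a D-type cyclin, by 2.30 ± 0.47 against controls (adjusted p = 6.4e-05 and 0.00749). In lymphomas Myc, a growth-promoting transcription factor, was higher by 3.02 ± 0.26 than in CD4Cre-ctnnbex3 mice and by 1.94 ± 0.14 than in controls (adjusted p = 2.6e-06 and 1.08e-07). Rbl2, a pocket protein that restrains E2F targets, fell in lymphomas by 0.96 ± 0.14 against CD4Cre-ctnnbex3 mice and by 1.31 ± 0.14 against controls (adjusted p = 0.00018 and 5.73e-06), and Cdkn1b, an inhibitor of cyclin-dependent kinases, fell by 1.36 ± 0.21 against controls (adjusted p = 0.000165).

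Markers of other cells moved with the groups, and their part in the results was not tested. The summed signal of 14 T-cell markers was 22899 to 38436 in lymphomas, 57682 to 84713 in CD4Cre-ctnnbex3 mice and 69348 to 75621 in controls, so T-cell RNA was present in every sample. A sum is weighted to its brightest probe sets. In CD4Cre-ctnnbex3 mice against controls 2 of the 14 rose and 5 fell, where 4.44% and 6.24% of all genes did. Ptcra, the pre-T-cell receptor chain, fell there by 1.78 ± 0.11 (adjusted p = 1.04e-06). In lymphomas 12 of the 14 fell against CD4Cre-ctnnbex3 mice, where 18.5% of all genes fell, and Ptcra was at the floor in all 8. The sum of 10 myeloid markers was 6432 to 21707 in lymphomas, 3220 to 5553 in CD4Cre-ctnnbex3 mice and 3208 to 4977 in controls, and that of 10 stroma and endothelium markers was 1517 to 8137, 1494 to 2542 and 1263 to 1634 in the same order. That of 8 granulocyte markers was 1876 to 4444 in lymphomas, 1593 to 2471 in CD4Cre-ctnnbex3 mice and 3373 to 9978 in controls, with Camp at the floor in all CD4Cre-ctnnbex3 mice, and that of 7 B-cell markers was 686 to 5526, 648 to 2697 and 1109 to 1403. The sums of 8 thymic epithelium and 6 erythroid markers overlapped between all groups. In CD4Cre-ctnnbex3 mice against controls 1 of the 10 myeloid markers rose and 0 fell. The marker that rose was Itgam, by 3.73 ± 0.23 (adjusted p = 1.17e-06). Of the 8 granulocyte markers 0 rose and 5 fell there.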

How the data were processed

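The authors deposited 1 table of probe-set intensity values for 18 arrays, which the design text says came from dChip; that program's version, expression model and scaling are not stated in what was used here. Of 811818 values 9775 (1.20%) were blank. Blanks and anything under the 20th percentile were raised to it (an intensity of 53.5) before taking log2. Arrays were not rescaled, since the log2 range of their medians, with blanks at the floor, was 0.45, under the limit of 0.5. Probe sets were named through GEO's platform annotation, in which 34945 have 1 symbol, 932 several and 9160 none. Genes were kept where the signal exceeded the 40th percentile (109) on 5 or more arrays. Each pair of groups was fitted alone with limma 3.58.1 in R 4.3.3 (intensity trend), with Benjamini-Hochberg adjustment over all 14018 genes; "rose" and "fell" mean an adjusted p under 0.05. The code was tested on simulated data.

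The members, the gene lists and the comparison of mice numbered 1 and 2 with the others were chosen with earlier results of these data known. Values of every mouse are given for the member with the smallest adjusted p in each role in CD4Cre-ctnnbex3 mice against controls and in lymphomas against CD4Cre-ctnnbex3 mice, for members that passed in both with opposite signs, and for members in which 1 mouse lay apart; further members are given by differences. Of each other list up to 3 genes with the smallest adjusted p are named. Same-numbered mice of 2 groups did not deviate together in every pair, so the numbers were not taken to pair them. No pair of arrays looked like duplicates: the SD of the log2 difference between any pair of mice in a group was at least 0.266.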

Additional observations from a re-analysis of the deposited data

Results flagged for a closer look

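In 7 of the 153 groups of mice (51 members in 3 groups), the mouse at 1 end lay further from the next than Dixon's critical value allows. That is 4.58% of the groups, and chance alone gives about 5%. Lymphoma 6 was the low mouse for Pola1, at a log2 signal of 6.51 with the next lymphoma at 8.57, for Dbf4, at 8.56 with the next at 9.55, and for Ccne2, at 7.40 with the next at 8.22. Lymphoma 7 was the high mouse for Cdt1, at 10.8 with the next at 10.33, and for Cdc45, at 9.17 with the next at 8.71. Lymphoma 1 was high for Rrm1, at 11.58 with the next at 11.08. Control 3 was low for Rfc2, at 10.02 with the next at 10.11, within a control range of 10.02 to 10.14. Lymphoma 6 also had the lowest and lymphoma 7 the highest median over all 51 members among the tumours, at -0.24 and 0.32 relative to the control mean.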

How the results depend on the processing

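Rpa1 stayed higher against controls in CD4Cre-ctnnbex3 mice and in lymphomas under every setting tried, as did Pold2, Pole and Prim2 in lymphomas against CD4Cre-ctnnbex3 mice, and Tk1 and Tyms stayed lower in lymphomas against controls. Pold2, Pole and Tk1 have 1 probe set each, so these genes could not be checked by a second one. In CD4Cre-ctnnbex3 mice against controls the 2 members higher became 1 with all 3 groups in 1 fit, without the intensity trend, with mice 1 and 2 alone, with mice 3 and up alone and without controls 1 and 2. The 7 lower became 3 with arrays centred on their medians, 4 with 1 fit, 18 with the set of numbers (1 and 2, or 3 and up) as a block, 1 with mice 1 and 2 alone, 14 with mice 3 and up alone and 3 without controls 1 and 2. All genes passing numbered 1497, and 834 with 1 fit, 932 without controls 1 and 2 and 762 of 6054 tested by the second probe set. Over all genes the 875 lower became 676 with centring and 1196 with the set of numbers as a block. In lymphomas against CD4Cre-ctnnbex3 mice the 3 lower became 1 with centring and 0 with the second probe set, with the mean of all probe sets or with mice 1 and 2 alone, where 5 were higher. All genes passing numbered 4839, and 2585 with mice 1 and 2 alone and 2273 by the second probe set. In lymphomas against controls the 7 lower became 4 with centring, 1 with the second probe set (all genes 2521, against 5632) and 4 without controls 1 and 2. Over all genes the 3188 lower became 2381 with centring. Leaving out controls 1 and 2 or lymphomas 1 and 2 was chosen after seeing the data.

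Leaving out each mouse in turn gave, in CD4Cre-ctnnbex3 mice against controls, 1 to 2 members higher, 5 to 18 lower, medians of -0.39 to -0.25 and 1163 to 1668 genes in all. In lymphomas against CD4Cre-ctnnbex3 mice it gave 9 to 20 higher, 3 to 4 lower, medians of 0.21 to 0.39 and 3778 to 5205 genes. In lymphomas against controls it gave 1 to 8 higher, 7 to 10 lower, medians of -0.085 to 0.035 and 4747 to 6117 genes. The 18 lower came without CD4Cre-ctnnbex3 mouse 2, the 9 higher without CD4Cre-ctnnbex3 mouse 4 or 5, and the 1 higher in lymphomas against controls without control 3 or 4.

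Signs turned for these members, and the cause was not tested. In lymphomas against CD4Cre-ctnnbex3 mice the second probe set gave 0.32 for Rpa1 (adjusted p = 0.0378), 0.44 for Fen1 and 0.13 for Ccne1, the mean of all probe sets gave 0.028 for Fen1, and mice 1 and 2 alone gave -0.22 for Cdc6. In lymphomas against controls the second probe set gave 0.39 for Orc1, 0.43 for Rfc2 and 0.31 for Fen1, and mice 1 and 2 alone gave 0.55 for Orc3, -0.49 for Cdc6, -0.14 for Mcm3 and 0.48 for Rfc1.

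Quantile scaling moved the median of all genes in lymphomas against controls from -0.029 to 0.083, and the split of all genes from 2444 higher and 3188 lower to 3588 and 2558; against CD4Cre-ctnnbex3 mice the split went from 2252 and 2587 to 3179 and 2225, and to 2688 and 1908 with centring. With the mouse number as a replicate block 2 members were higher and 8 lower in CD4Cre-ctnnbex3 mice against controls, 20 and 3 in lymphomas against CD4Cre-ctnnbex3 mice, and 8 and 8 in lymphomas against controls. Over all genes the counts were 617 and 837, 2413 and 2559, and 2191 and 2749 in that order. The numbers were not taken to pair the mice, since same-numbered mice deviated together (r above 0.1) in 2, 4 and 2 of 5 pairs in that order, and 3, 3 and 2 of 10 mice correlated best with their own number. The set of numbers went with the data between lymphomas and CD4Cre-ctnnbex3 mice. Lymphomas 1 and 2 correlated with CD4Cre-ctnnbex3 mice 1 and 2 at 0.17 to 0.40 and with mice 3 to 5 at -0.35 to -0.083. In the controls the split by number was uneven. Control 1 correlated with CD4Cre-ctnnbex3 mice 1 and 2 at 0.36 and 0.37, control 2 at 0.009 and -0.044, and control 5 at 0.16 and 0.25. The counts against controls by set of numbers rest on that uneven split.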
